A study of Mus musculus with 6 samples.

Results

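The genes of 8 Toll-like receptors (Tlr1, Tlr2, Tlr3, Tlr4, Tlr6, Tlr7, Tlr9 and Tlr13) and of 2 co-receptors for lipopolysaccharide (LPS), Cd14 and Ly96, were examined in RNA-seq counts of cultured mouse dendritic cells. They were chosen by gene name, with earlier results of these data known, and all 10 were found among the 54532 annotated genes. The study compared 3 Control libraries with 3 libraries of cells treated with DB2313, a small molecule that the study used as an inhibitor of Spi1 (also called PU.1), a transcription factor of myeloid cells. The labels gave no strain, genotype, age, dose or duration, and nothing in them says that the libraries of a group came from separate cultures or animals, so the p-values measure only the spread between these libraries. The cells are labelled as dendritic, while the study's own text deals with macrophages and describes no dendritic cell culture. In the count table, 1 set of columns was named BMDC, a usual short form for dendritic cells grown from bone marrow, and the other after Spi1. They were read as Control and DB2313, and all directions given here depend on that reading.

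Toll-like receptors are membrane proteins that recognise molecules of microbes through their leucine-rich repeats and signal through a shared intracellular TIR domain. Tlr1, Tlr2, Tlr4 and Tlr6 act mainly at the cell surface, where they bind lipoproteins and LPS, whereas Tlr3, Tlr7, Tlr9 and Tlr13 reside in endosomes and recognise nucleic acids. LPS is handed by Cd14 to Ly96 (MD-2), which is bound to Tlr4 and holds the lipid part of LPS. In dendritic cells these receptors drive maturation and the production of cytokines.

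Total counts ranged from 16146743 to 19764677 per library, and 14174 genes were expressed highly enough to be tested. Pairs of DB2313 libraries were further apart than pairs of Control libraries (chi-square per degree of freedom of 7.43 to 17.7 against 4.77 to 5.28), with DB2313 replicates 1 and 3 the most distant pair. The share of counts from mitochondrial genes was 2.06 to 2.41% in Control and 1.46 to 1.57% with DB2313, so the groups were apart, and its part in the changes of the receptors was not tested. Levels are given as CPM, counts relative to the TMM-scaled size of the library. Spi1 itself had 366 ± 18.4 CPM in Control against 329 ± 20.1 CPM in the DB2313 libraries (SD, 3 libraries a group), with overlapping groups and an adjusted p of 0.206 (edgeR). With a gene length offset Spi1 passed as lower (log2 fold change -0.18, adjusted p 0.0433, edgeR). This was the only 1 of 15 alternative fits in which Spi1 passed. The label of the cells was compared with 13 markers of dendritic cells. Cd209a did not pass the filter on low counts, and the other 12 were expressed, with Cd74 at a mean of 6557 CPM, Ccr7 at 1535 CPM and Itgax at 172 CPM in Control. Itgax, the dendritic integrin Cd11c, was itself lower in the treated libraries, at a mean of 116 CPM (adjusted p 3.2e-04, edgeR), as were Dcstamp (30.8 to 13.9 CPM) and Batf3 (106 to 71.5 CPM). Markers of other cells were present too. The summed level of 13 neutrophil markers was 5249 to 5771 CPM in Control and 5609 to 7051 CPM with DB2313, and that of 12 macrophage markers was 1601 to 1725 and 1277 to 1536 CPM. Summed markers of B cells, NK cells, fibroblasts and endothelial cells did not exceed 54.4 CPM in any library.

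The promoter sequences of 6 of the 10 genes were matched in RefSeq (GRCm38.p6), and those of Tlr4, Tlr7, Cd14 and Ly96 were not matched. Because the compound is aimed at Spi1, windows from 250 bases before to 50 bases after each start were searched on both strands for GAGGAA, the core of the sequence bound by Spi1. The stretches printed here lie upstream of the start and outside annotated exons. They belong to a pair of receptors that fell with DB2313, Tlr2 (chr3:83841768-83841858, minus strand) and Tlr13 (chrX:106143025-106143203, plus strand), and a pair that did not pass the test, Tlr1 (chr5:64933564-64933808, minus strand) and Tlr9 (chr9:106222348-106222597, plus strand). Each is written 5′ to 3′ on the strand of the gene, with GAGGAA in capitals.
Tlr2: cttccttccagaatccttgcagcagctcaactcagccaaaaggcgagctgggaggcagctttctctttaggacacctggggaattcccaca
Tlr13: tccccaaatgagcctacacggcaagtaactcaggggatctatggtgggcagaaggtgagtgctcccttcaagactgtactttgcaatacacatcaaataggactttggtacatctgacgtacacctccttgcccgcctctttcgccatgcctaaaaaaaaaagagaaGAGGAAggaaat
Tlr1: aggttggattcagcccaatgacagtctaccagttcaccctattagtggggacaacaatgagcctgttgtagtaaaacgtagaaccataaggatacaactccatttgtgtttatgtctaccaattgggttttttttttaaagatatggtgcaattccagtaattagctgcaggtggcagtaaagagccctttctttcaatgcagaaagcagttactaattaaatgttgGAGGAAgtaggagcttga
Tlr9: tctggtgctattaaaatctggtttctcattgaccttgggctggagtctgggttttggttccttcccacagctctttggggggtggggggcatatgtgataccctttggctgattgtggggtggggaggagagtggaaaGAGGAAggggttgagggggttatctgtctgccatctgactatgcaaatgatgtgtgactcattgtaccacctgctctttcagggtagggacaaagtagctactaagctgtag
The window of Tlr13 held GAGGAA once, that of Tlr1 at the distal of its start sites once, and that of Tlr9 2 times, 1 of them on the opposite strand downstream of the start. The windows of Tlr2, Tlr3 and Tlr6 did not hold these letters. Of 32851 windows of the same length over all genes, 28.3% held the motif at least once. A match describes the letters in the window and not a bound site.

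Of the 10 genes, 4 were lower with DB2313 (Cd14, Ly96, Tlr2 and Tlr13) and 0 were higher at an adjusted p under 0.05 in edgeR's quasi-likelihood test, adjusted over all genes tested. Over all genes tested, 5.94% were lower and 4.66% higher, 10.6% in either direction. At an unadjusted p under 0.05, 6 of the genes were lower and 0 higher, beside 3309 of the 14174 genes tested in either direction. At the adjusted threshold, DESeq2 and limma-voom also called 4 lower and 0 higher. The CPM ranges of the groups did not overlap for 6 genes, all lower with DB2313, against 27.4% of all genes tested in either direction. The median log2 fold change of the 10 genes was -0.41, beside 8.2e-04 for all genes tested. Because the genes were chosen with earlier results known, these values describe them and do not test for an excess over all genes. Counts were bulk measurements, so fewer cells of a type and less RNA per cell cannot be told apart.

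**Figure D1:**
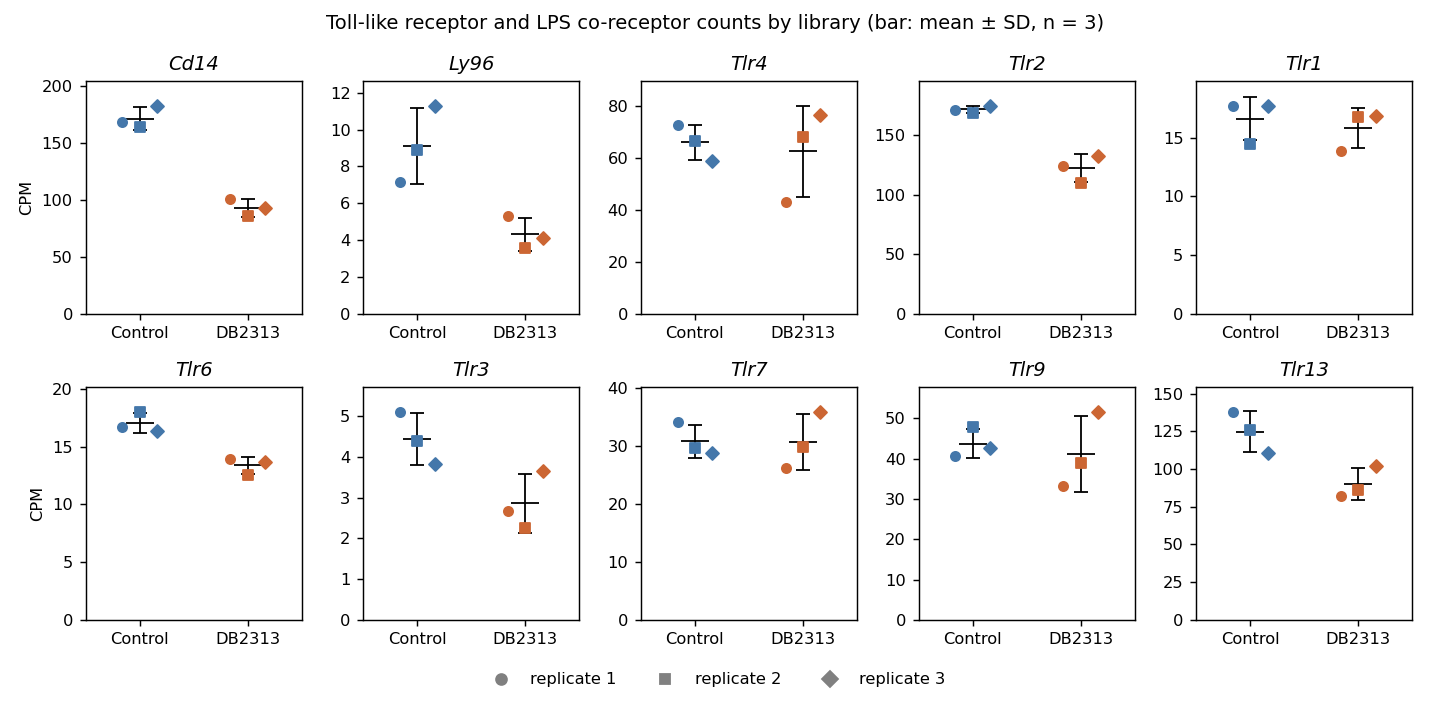
CPM of each of the 10 genes (vertical axes from 0) in the 3 Control and 3 DB2313 libraries, with marker shapes for the replicate number and bars for the mean ± SD. Cd14, Ly96, Tlr2, Tlr13, Tlr6 and Tlr3 are lower in all 3 DB2313 libraries than in all 3 Control libraries, whereas Tlr4, Tlr1, Tlr7 and Tlr9 overlap.

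The LPS receptor complex was examined first. Cd14 (ENSMUSG00000051439, chromosome 18, minus strand), the membrane-anchored protein that captures LPS, was measured at 168, 163 and 182 CPM in Control replicates 1 to 3 and at 101, 85.3 and 92.4 CPM in DB2313 replicates 1 to 3. The groups were far apart, with raw counts of 2603 to 2904 in Control and 1538 to 1700 with DB2313. Cd14 fell by 45.8% (log2 fold change -0.88 ± 0.08, SE, adjusted p 6.4e-06 in edgeR).

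Ly96 (ENSMUSG00000025779, chromosome 1, 16688051 to 16709611, plus strand), which encodes MD-2, was at 7.13, 8.91 and 11.3 CPM in Control and at 5.28, 3.56 and 4.09 CPM with DB2313. It had only 116 to 180 counts in Control and 68 to 87 with DB2313, and its Control libraries were more spread (coefficient of variation 22.9%) than those of Cd14 (5.77%). No DB2313 library reached the level of a Control library. Its log2 fold change of -1.08 ± 0.22 (SE, adjusted p 0.0044 in edgeR) was the lowest of the 10 genes. Without Control replicate 3 it was -0.90.

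Tlr4 (ENSMUSG00000039005, chromosome 4, 66827584 to 66930284, plus strand), the signalling chain of the complex, had 72.4, 66.4 and 58.7 CPM in Control and 42.8, 68.0 and 76.4 CPM with DB2313. DB2313 replicate 1 was the lowest and DB2313 replicate 3 the highest of the 6 libraries, so the groups overlapped completely. The log2 fold change was -0.08 ± 0.15 (SE, adjusted p 0.822 in edgeR). It turned to 0.13 without DB2313 replicate 1, with an adjusted p of 0.433.

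The proportions within the complex were then compared as ratios of counts per kilobase (kb) of gene length, which do not depend on the scaling of a library. Cd14 exceeded Tlr4 by 8.19, 8.69 and 10.98 times in Control and by 8.32, 4.43 and 4.28 times with DB2313. The ratio of Ly96 to Tlr4 was 0.536, 0.730 and 1.05 in Control and 0.673, 0.285 and 0.291 with DB2313. In both ratios DB2313 replicate 1 lay within the Control range and the other DB2313 libraries lay below it. The log2 difference between the groups was -0.77 for Cd14 to Tlr4 and -0.96 for Ly96 to Tlr4. The exact two-sided permutation p was 0.2 for each (adjusted 0.2 over the 4 ratios compared). With 3 against 3 libraries it cannot go below 0.1, so the test could not reach 0.05 whatever the ratios.

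Tlr2 and its partners followed. Tlr2 (ENSMUSG00000027995, chromosome 3, 83836272 to 83841767, minus strand), the receptor for bacterial lipoproteins, had 172, 169 and 175 CPM in Control and 125, 109.5 and 133 CPM with DB2313. The coefficient of variation of the Control libraries was only 1.71%, and the DB2313 libraries all lay well below them. Tlr2 fell by 28.8% (log2 fold change -0.49 ± 0.08, SE, adjusted p 9.0e-04 in edgeR).

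Tlr2 pairs with Tlr1 to bind triacylated and with Tlr6 to bind diacylated lipoproteins. The 2 partner genes lie side by side on the minus strand of chromosome 5, at 64924679 to 64933563 (Tlr1) and 64952031 to 64960097 (Tlr6). Tlr1 (ENSMUSG00000044827) had 17.7, 14.5 and 17.7 CPM in Control and 13.9, 16.8 and 16.9 CPM with DB2313, with overlapping groups (log2 fold change -0.07 ± 0.13, SE, adjusted p 0.812 in edgeR). Tlr6 (ENSMUSG00000051498) had 16.7, 18.0 and 16.4 CPM in Control and 14.0, 12.6 and 13.6 CPM with DB2313. The groups of Tlr6 did not overlap, but its log2 fold change of -0.35 ± 0.12 (SE) did not pass (p 0.0111, adjusted p 0.0812 in edgeR).

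The ratio of Tlr1 to Tlr2, per kb, was 0.0929, 0.0773 and 0.0912 in Control and 0.101, 0.138 and 0.115 with DB2313, so every DB2313 library had more Tlr1 for its Tlr2. The exact permutation p was 0.1, the smallest that this design allows, and 0.2 when adjusted over the 4 ratios. That of Tlr6 to Tlr2 was 0.0803 ± 0.0054 in Control and 0.0889 ± 0.0052 with DB2313 (SD, n = 3 each), with overlapping groups and an exact permutation p of 0.2.

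Among the endosomal receptors, Tlr13 (ENSMUSG00000033777, chromosome X, 106143204 to 106160493, plus strand), a receptor of mice for bacterial ribosomal RNA, was the only one that passed. It had 138, 126 and 110.5 CPM in Control and 82.1, 86.3 and 102 CPM with DB2313. The highest DB2313 library was close below the lowest Control library. Tlr13 fell by 27.9% (log2 fold change -0.47 ± 0.10, SE, adjusted p 0.0052 in edgeR). Without Control replicate 1, the highest library, the log2 fold change was -0.39 and the adjusted p 0.0511.

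Tlr9 (ENSMUSG00000045322, chromosome 9, 106222598 to 106226883, plus strand), which recognises DNA with unmethylated CpG, had 40.6, 47.7 and 42.7 CPM in Control and 33.2, 38.9 and 51.6 CPM with DB2313. Tlr7 (ENSMUSG00000044583, chromosome X, 167304929 to 167330558, minus strand), a receptor for single-stranded RNA, had 34.1, 29.5 and 28.8 CPM in Control and 26.2, 29.7 and 35.8 CPM with DB2313. For both, DB2313 replicate 1 was the lowest and DB2313 replicate 3 the highest of the 6 libraries. Their log2 fold changes were -0.09 ± 0.13 and -0.01 ± 0.12 (SE), with adjusted p of 0.760 and 0.975 (edgeR). Markers of plasmacytoid dendritic cells, which are known for Tlr7 and Tlr9, were scarce. Siglech, Ly6d, Cox6a2 and Klk1 did not pass the filter on low counts, Klk1 was at 0 in every library, and the sum of the 7 markers was 102 to 116 CPM in Control and 88.0 to 96.1 CPM with DB2313, most of it from Spib and Tcf4.

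Tlr3 (ENSMUSG00000031639, chromosome 8, 45395665 to 45411080, minus strand), the receptor for double-stranded RNA, was the least expressed of the 10 genes. It had 83, 70 and 61 counts in Control and 44, 45 and 61 with DB2313, or 5.10, 4.39 and 3.83 against 2.67, 2.26 and 3.67 CPM. The groups did not overlap in CPM, by a narrow margin between Control replicate 3 and DB2313 replicate 3. The log2 fold change was -0.64 ± 0.26 (SE), and its p of 0.0267 did not pass after adjustment (0.146, edgeR). Without DB2313 replicate 3 it passed, with a log2 fold change of -0.85 and an adjusted p of 0.0456 (edgeR). This was the only 1 of 15 alternative fits in which Tlr3 passed. An antisense gene, Gm45542, overlaps Tlr3 and had 0 counts in every library. No other gene of the 10 overlapped an annotated gene or shared 100 bases at 95% identity with another transcript.

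**Figure D2:**
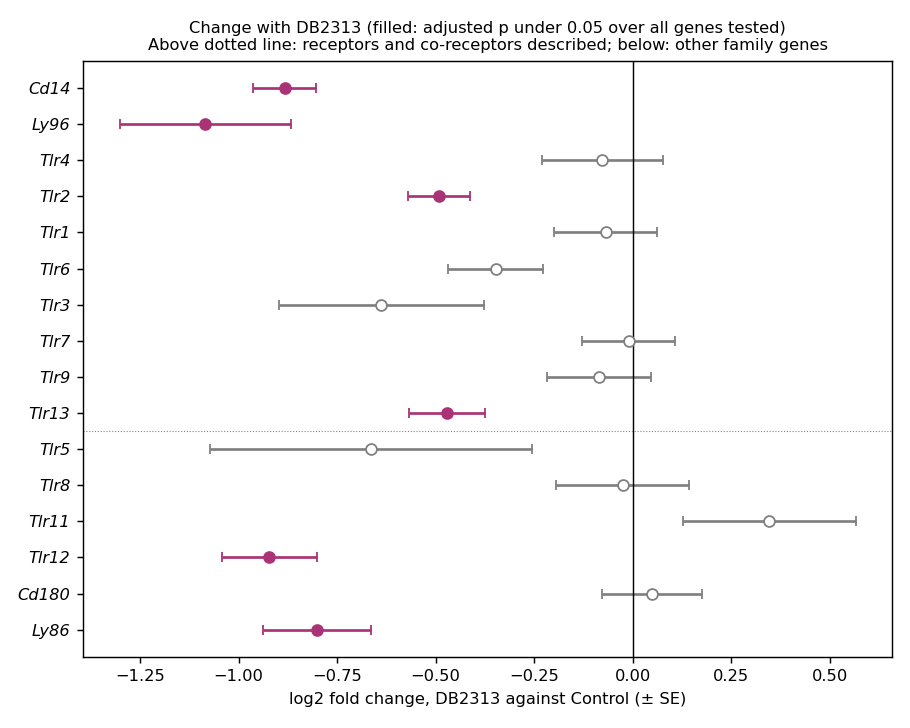
Log2 fold change of DB2313 against Control with its SE (horizontal axis) for the 10 genes (above the dotted line) and 6 other genes of the family (below), filled where the adjusted p was under 0.05. The values of Ly96, Cd14, Tlr2 and Tlr13 run from -1.08 to -0.47, and those of Tlr4, Tlr1, Tlr9 and Tlr7 lie between -0.09 and -0.01.

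Levels were compared between genes as CPM per kb. In Control, Cd14 was the highest with 109 ± 6.28 CPM per kb, followed by Tlr2 with 57.0 ± 0.976 and Tlr13 with 29.0 ± 3.17 (SD, n = 3 each), and none of these 3 overlapped its neighbour in the order. Tlr9 (12.6 ± 1.05), Tlr4 (11.8 ± 1.24), Ly96 (8.92 ± 2.04) and Tlr7 (7.55 ± 0.698 CPM per kb) came next, and each overlapped the gene next to it. Tlr1 (4.97 ± 0.553) and Tlr6 (4.57 ± 0.230 CPM per kb) could not be separated either, and Tlr3 was last at 0.853 ± 0.123 CPM per kb. With DB2313 the first 5 places were kept, although Cd14 stood at 59.0 ± 4.91 and Tlr2 at 40.6 ± 3.92 CPM per kb. Ly96 moved from the sixth to the eighth place, at 4.22 ± 0.864 CPM per kb, and its range overlapped those of its neighbours Tlr1 and Tlr6.

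**Figure D3:**
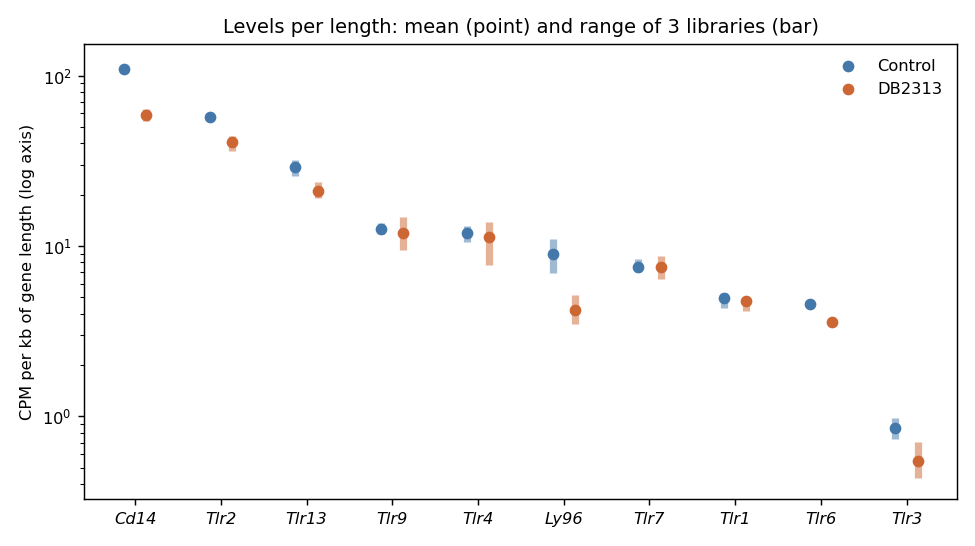
CPM per kb of gene length (log axis) of the 10 genes, in the order of their Control means, as the mean (points) and the range (bars) of the 3 libraries of each group. Levels run from 109 CPM per kb for Cd14 to 0.853 for Tlr3 in Control, and Ly96 drops from 8.92 to 4.22 with DB2313.

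Summed per kb, the surface receptors Tlr1, Tlr2, Tlr4 and Tlr6 stood at 79.8, 77.1 and 78.2 CPM per kb in Control and at 56.9, 56.9 and 66.5 with DB2313, most of it Tlr2. The endosomal receptors Tlr3, Tlr7, Tlr9 and Tlr13 stood at 53.0, 51.1 and 45.8 CPM per kb in Control and at 35.5, 39.0 and 47.9 with DB2313. The first sum was lower in every DB2313 library and the second overlapped. Without Tlr13 the endosomal sum was 21.0 ± 0.870 CPM per kb in Control and 19.9 ± 4.01 with DB2313 (SD, n = 3 each).

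The DB2313 libraries differed among themselves more for some receptors than for others. The coefficient of variation among DB2313 libraries was 28.1% for Tlr4, 22.9% for Tlr9 and 15.8% for Tlr7, against 10.5%, 8.35% and 9.26% in Control. It was 5.37% for Tlr6, 8.32% for Cd14 and 9.67% for Tlr2 with DB2313. For 5 genes (Tlr1, Tlr4, Tlr7, Tlr9 and Tlr13), DB2313 replicate 1 was the lowest and DB2313 replicate 3 the highest of the DB2313 libraries, whereas Cd14, Ly96 and Tlr6 were lowest in replicate 2 and highest in replicate 1. The log2 difference of Tlr4 from the Control mean was -0.62, 0.05 and 0.22 in DB2313 replicates 1 to 3, and that of Cd14 was -0.76, -1.003 and -0.89.

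Marker levels also differed between the DB2313 libraries, not all in the same order. The summed level of the dendritic cell markers was 12230 to 12510 CPM in Control and 12050, 11230 and 10330 CPM in DB2313 replicates 1 to 3, and that of 7 markers of type 1 conventional dendritic cells was 553 to 565 CPM and 477, 478 and 463 CPM. Both sums were lower in every DB2313 library. Most of the dendritic cell sum came from Cd74, H2-Eb1, Ccr7 and H2-Ab1, and none of these passed (adjusted p 0.0633 to 0.507, edgeR). Of the 12 dendritic cell markers tested, 3 were lower and 0 higher. The sum of the 7 markers came mostly from Irf8, Wdfy4 and Batf3. Among the 7, Batf3 passed as lower and Clec9a as higher. Clec9a went from 0.769 to 3.36 CPM (log2 fold change 2.12, adjusted p 0.0017, edgeR), on 10 to 72 counts per library. The summed level of the macrophage markers was 1277, 1348 and 1536 CPM in DB2313 replicates 1 to 3, and that of the neutrophil markers was 7051, 6050 and 5609 CPM. Of the 11 macrophage markers tested, 7 were lower and 1 higher with DB2313, and of the 13 neutrophil markers 4 were higher and 1 lower. Over all genes tested, 5.94% were lower and 4.66% higher. Vsig4 of the macrophage list was at or under 3 counts in every library, and no neutrophil marker was. T cell markers (174.6 to 209.6 CPM in Control and 262.8, 216.0 and 178.3 CPM in DB2313 replicates 1 to 3) and mast cell and basophil markers (2424 to 2619 CPM and 2947, 2818 and 2453 CPM) followed the order of the neutrophil markers. The part of these markers in the changes of the receptors was not tested. Monocyte markers (6 genes, 1276 to 1327 CPM summed in Control and 1229 to 1407 with DB2313) overlapped between the groups, and 0 of them passed the test in edgeR.

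**Figure D4:**
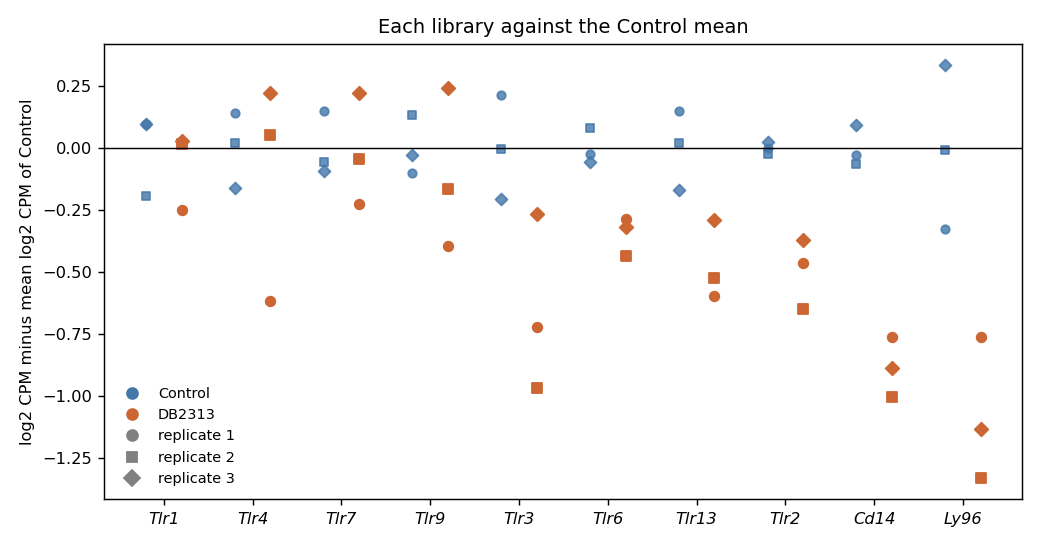
Log2 CPM of each library minus the mean log2 CPM of the Control libraries (vertical axis) for the 10 genes, with colours for the group and shapes for the replicate number. Tlr4 spreads from -0.62 in DB2313 replicate 1 to 0.22 in replicate 3, whereas Cd14 lies between -1.003 and -0.76 in all 3 DB2313 libraries.

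Other genes of the receptor family were described from a list of 6. Of these, 2 were lower and 0 higher with DB2313 (edgeR), with a median log2 fold change of -0.35, which was -0.09 without DB2313 replicate 1. The genes called were 33.3% of the list, against 10.6% of all genes tested. This list and those below were chosen with earlier results known, so such shares describe them and do not test for an excess. Tlr12, a receptor of mice for profilin of protozoa, had 20.2, 22.1 and 19.95 CPM in Control and 10.6, 10.5 and 11.7 CPM with DB2313 (log2 fold change -0.92 ± 0.12, SE, adjusted p 1.7e-04 in edgeR). Tlr11, which acts with Tlr12, had 5.91 ± 1.95 CPM in Control against 7.51 ± 0.498 CPM in the treated libraries (SD) and did not pass (adjusted p 0.380, edgeR). The receptor and its partner thus stood on different sides of the threshold, and the difference between them was not tested.

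Ly86 (MD-1), a relative of Ly96 that binds the receptor Cd180, had 17.3, 16.3 and 17.8 CPM in Control and 10.8, 10.3 and 8.29 CPM with DB2313. All DB2313 libraries were lower, with a log2 fold change of -0.80 ± 0.14 (SE, adjusted p 0.0015 in edgeR). Its receptor Cd180 had 71.1 ± 6.87 CPM in Control against 73.6 ± 15.99 CPM in the treated libraries (SD), with an adjusted p of 0.869 (edgeR). Tlr8, next to Tlr7 on chromosome X, had 37.5 ± 5.89 and 36.8 ± 10.6 CPM (adjusted p 0.954, edgeR), and like Tlr7 it was lowest in DB2313 replicate 1 and highest in DB2313 replicate 3. Tlr5, the receptor for flagellin, was near the limit of detection with 10 to 36 counts per library.

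Genes that carry the receptors to their compartment, process them or pass ligands to them showed changes in both directions. Of 14 tested, 3 were higher and 3 lower, with a median log2 fold change of 0.028 (0.0031 without Control replicate 1 and 0.068 without DB2313 replicate 2). The genes called were 42.9% of those tested in the list, against 10.6% of all genes tested. The largest change was that of Lgmn, an endosomal protease that can cleave nucleic acid-sensing receptors, which fell from 310 ± 9.33 to 108 ± 9.13 CPM (log2 fold change -1.52). Slc15a3, an endolysosomal peptide transporter (-0.59), and the protease Ctss (-0.25) were lower too. Cnpy4, a chaperone-like protein tied to surface Tlr4 (0.71), Ctsl (0.38) and the lipid receptor Cd36 (0.35, log2 fold changes) were higher. Their adjusted p ranged from 1.6e-08 for Lgmn to 0.0205 for Ctss (edgeR). Ctss no longer passed under the replicate block (adjusted p 0.0979) or without any 1 of Control replicates 1, 2 and 3 and DB2313 replicate 2 (adjusted p 0.119, 0.0537, 0.0856 and 0.134, edgeR), nor did Cd36 without Control replicate 2 or 3 (0.0918 and 0.121). Unc93b1, which carries the endosomal receptors out of the endoplasmic reticulum, had a log2 fold change of -0.06 ± 0.07 and the receptor chaperone Hsp90b1 one of 0.01 ± 0.06 (SE), with adjusted p of 0.647 and 0.966 (edgeR).

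Of 23 adaptors and kinases downstream of the receptors, 1 was lower and 0 were higher (edgeR). This was 4.35%, against 10.6% of all genes tested, and the median log2 fold change was -0.025. Without DB2313 replicate 3, 5 were lower and the median was -0.06, and without DB2313 replicate 1, 1 was higher and the median was 0.02. Over all genes, 1311 were lower without DB2313 replicate 3, against 842 with all libraries. The gene lower with all libraries was Irak2, a kinase-like protein of the Myddosome, which went from 72.6 to 55.7 CPM (log2 fold change -0.38 ± 0.09, SE, adjusted p 0.0168 in edgeR), and it did not pass without Control replicate 1 (0.112) or DB2313 replicate 2 (0.0672). The shared adaptor Myd88 had a log2 fold change of 0.15 ± 0.08 (adjusted p 0.309) and Ticam1, the adaptor of Tlr3 and Tlr4, one of 0.02 ± 0.08 (SE, adjusted p 0.929 in edgeR). Of 17 negative regulators, Tnip1 (-0.27, adjusted p 0.0349) and Nfkbib (-0.31, adjusted p 0.0448, log2 fold changes in edgeR) were lower and 0 were higher, with 1 higher without DB2313 replicate 3. Tnip1 and Nfkbib made up 11.8% of the list, near the share of all genes tested (10.6%). Under the replicate block neither passed (adjusted p 0.0747 and 0.0715, edgeR), and Nfkbib did not pass with scaling by library totals either (0.0579). Both calls were lost without any 1 of the 3 Control libraries or DB2313 replicate 2 (adjusted p 0.105 to 0.240 for Tnip1 and 0.118 to 0.193 for Nfkbib), and that of Nfkbib also without DB2313 replicate 3 (0.0675).

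Of 13 transcription factors that act below the receptors, 5 were lower and 1 was higher, with a median log2 fold change of -0.16. The genes called were 46.2% of the list, against 10.6% of all genes tested. The count of those lower was 3 without any 1 of the Control libraries and 7 without DB2313 replicate 1, and with a gene length offset 2 were higher. Fos (-0.63), Relb (-0.38), Rel (-0.36), Nfkb2 (-0.32) and Irf5 (-0.25) were lower and Irf7 (0.42, log2 fold changes) was higher, with adjusted p from 0.0045 to 0.0243 (edgeR). Of 24 genes known to be induced through the receptors, 20 were tested, 4 were lower and 2 were higher. The genes called were 30% of those tested in the list, against 10.6% of all genes tested. The median log2 fold change of the list was -0.060. This median was -0.15 without Control replicate 2, -0.13 with a gene length offset and -0.04 with library totals. Il12b, a cytokine subunit, fell from 31.1 ± 1.77 to 15.4 ± 1.95 CPM, and Il1a (-0.84), Acod1 (-0.70) and Il1b (-0.68) were lower too. The scavenger receptor Marco rose from 53.3 ± 7.61 to 127 ± 10.1 CPM (SD, n = 3 each), and Ccl4 was higher (log2 fold change 0.62, adjusted p 0.0367 in edgeR), though its groups overlapped. Ifnb1 had 3 counts or fewer in every library. Tnf and Il6 had log2 fold changes of -0.35 ± 0.16 and -0.06 ± 0.12 (SE) and did not pass (adjusted p 0.190 and 0.810, edgeR). Some of these calls were lost under the replicate block or when 1 library was left out. Calls over all genes fell too in some of these fits, with 411 lower without DB2313 replicate 2 against 842 with all libraries. The part of the smaller number of libraries in each loss was not tested. Irf5 did not pass under the replicate block (adjusted p 0.0930). It did not pass without any 1 of the Control libraries or DB2313 replicate 2 either (0.0730 to 0.179, edgeR). The log2 fold change of Irf5 in these fits was -0.26 to -0.22, against -0.25 with all libraries. Ccl4 did not pass under the block (0.0541), nor without Control replicate 1 or 2 or DB2313 replicate 1 or 2 (0.0979 to 0.165, edgeR). Without Control replicate 1, Fos (adjusted p 0.0529), Irf7 (0.123) and Il1a (0.0830) did not pass. Neither did Rel (0.0565) and Irf7 (0.104) without Control replicate 2, Nfkb2 (0.0563) and Il1a (0.10) without Control replicate 3, or Il1a (0.0828) without DB2313 replicate 2.

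**Figure D5:**
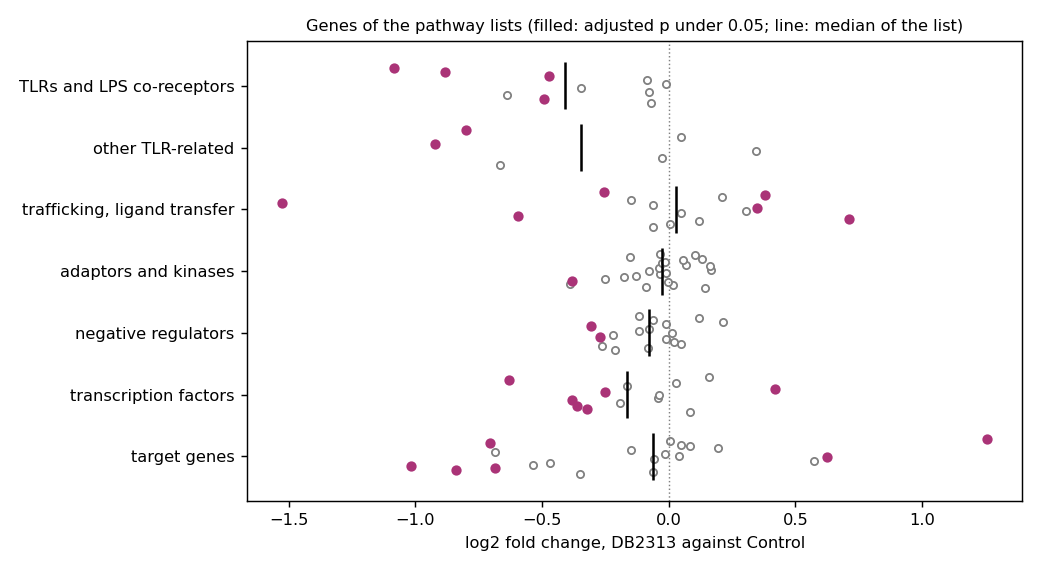
Log2 fold change of DB2313 against Control (horizontal axis) of each tested gene in the 10 receptors and co-receptors and in 6 lists of genes around them, filled where the adjusted p was under 0.05, with a line at the median of each list. The medians are -0.41 for the receptors and co-receptors, -0.35 for the other family genes (-0.09 without DB2313 replicate 1) and -0.025 for adaptors and kinases, where only Irak2 is filled.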

How the data were processed

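RNA-seq of cultured mouse dendritic cells was analysed in 3 Control and 3 DB2313 libraries, grouped by the treatment in the labels. The authors deposited raw counts of reads for each gene, not normalised, in a single table that also holds gene lengths in bp. The submitters' processing notes named CASAVA 1.8, HISAT2 2.0.5 and featureCounts 1.5.0-p3, whereas the methods of the study named LifeScope. Which of them made the table, the genome build, the strand setting and the treatment of multi-mapping reads were not given in the sources used here. GENCODE M21 shares 54409 of the gene identifiers, 98.33% of them at identical coordinates, so coordinates are given as GRCm38. Column names were matched to titles by cell type, treatment target and number.

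Counts were tested with the quasi-likelihood test of edgeR 4.0.16 (R 4.3.3) with TMM scaling, filterByExpr and no covariate, and p-values were adjusted (Benjamini-Hochberg) across 14174 tested genes. The threshold was an adjusted p of 0.05, the prior count 0.125, and the SE was the log2 fold change divided by the square root of F. On simulated counts of 14203 genes for the same comparison, 95.5% of 200 genes changed by 2-fold were recovered, and 71.5% of 200 changed by 1.5-fold among 14202. Unchanged genes called were 17 and 14. The simulated counts had the same dispersion for all genes and in both groups, whereas the real DB2313 libraries were further apart than those of Control. These percentages can therefore overstate the recovery in the data. Reads carried no molecular identifiers, and errors describe the spread between libraries. The alternatives tried were scaling by library totals or by DESeq2 size factors, omission of the filter, a minimum mean count of 10, DESeq2 1.42.0, limma-voom (limma 3.58.1), the replicate number as a block, a gene length offset (lowess, span 0.3) with and without the block, and the omission of each library. Near-identical transcripts were searched with blastn 2.17.0. The replicate numbers were not used as pairs, since the deviations of same-numbered libraries from their group means did not correlate positively (-0.15 to -0.008). The labels gave no batch.

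The receptors and the lists of pathway genes and markers, written from general knowledge, were chosen with earlier results of these data known. All 10 receptors and co-receptors were named, and in each list up to 4 genes per direction past the threshold with the largest change and a mean log2 CPM of at least 1. Irf5 and the genes named without passing were chosen after their values were seen.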

Additional observations from a re-analysis of the deposited data

How the results depend on the processing

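Cd14, Ly96 and Tlr2 passed the test as lower under each of the 15 alternatives, with log2 fold changes from -0.94 to -0.82, from -1.25 to -0.90 and from -0.55 to -0.42. Tlr13 did so in 14 of 15, the exception being the fit without Control replicate 1 (adjusted p 0.0511), and 3 to 5 of the 10 genes were lower when 1 library was left out. Tlr6 did not pass in any alternative (adjusted p 0.0640 to 0.287). The sign of 4 genes near 0 turned. Tlr7 turned to 0.014 with library totals, and with single libraries left out it ranged from -0.14 to 0.088, Tlr1 from -0.15 to 0.018, Tlr4 from -0.24 to 0.13 and Tlr9 from -0.28 to 0.046, the highest each time without DB2313 replicate 1. None of these passed a threshold, and the cause was not tested.

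Over the same fits, 328 to 1097 of all genes were higher and 411 to 1311 lower. Both counts were lowest when DB2313 replicate 2 was omitted and highest when DB2313 replicate 3 was. Of the 98 genes of the 6 pathway lists, 3 to 9 were higher and 10 to 21 lower, against 6 and 17 with all libraries. Leaving out Control replicate 2 gave 3 higher, leaving out Control replicate 1 gave 10 lower, and leaving out Control replicate 3 or DB2313 replicate 2 gave 11 lower. These fits have fewer samples.

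With the replicate block, 4 of the 10 genes were lower and 0 higher (edgeR), as without it, and 502 of all genes were higher and 629 lower. The 3 correlations between same-numbered libraries were -0.008, -0.019 and -0.15, so no shared deviation was seen. With 3 libraries a group, these values cannot show that the libraries were unpaired. In the pathway lists the block left 5 genes higher and 13 lower. Tlr3 rested on 44 to 83 counts per library.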
